A study of Rattus norvegicus with 5 samples.

Results

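Hspa5, Atf4, Ddit3 and Xbp1 are genes of the response to stress in the endoplasmic reticulum (ER), and their RNA was followed in single ventricular cells of neonatal rats that had received a TBX18 or a GFP adenovirus. The 4 genes were taken by their Ensembl IDs from a list that named them. The rule itself uses no measured value, but the list was drawn up with earlier results of these data known. Of the 4, 3 were measured among the 15077 features listed for all 5 libraries, namely Hspa5 (ENSRNOG00000018294), Atf4 (ENSRNOG00000017801) and Ddit3 (ENSRNOG00000006789). Xbp1 (ENSRNOG00000009394) was not analysed here beyond its promoter. All 3 measured genes passed the minimum of 20 CPM (counts per 1000000) in every comparison.

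The cells were primary ventricular cells of wild-type Sprague Dawley rats at P2, per the labels a mixture of myocytes and non-myocytes. All 5 cultures received an adenovirus. GFP, the control virus, was given to a culture collected at day 3 and to another collected at day 14. Adenoviral TBX18, a T-box transcription factor of the sinoatrial node, was likewise given to cultures collected at day 3 and day 14. The fifth culture received TBX18 with A83-01, an inhibitor of TGF-beta type I receptor kinases, at 0.2 µM. Its title places it at day 14 and its treatment label gives 3 days, so how long the cells were exposed to A83-01 remains unclear. With 1 library in each of the 5 groups, no test between groups could be made, and no p-value is given. How many animals were pooled for a culture is not given in the sources used here.

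In the ER, newly made secreted and membrane proteins are folded. Hspa5 encodes BiP, the main chaperone of the ER, which binds unfolded chains and also holds the stress sensors Ire1, Perk and Atf6 inactive. When unfolded chains draw BiP away, Perk slows translation while favouring that of the transcription factor Atf4, Ire1 splices the RNA of the transcription factor Xbp1, and Atf6 is cut to release an activator of chaperone genes. Atf4 acts on genes of amino acid supply and on Ddit3, which encodes CHOP, a transcription factor linked to cell death under lasting stress. Atf4 and Ddit3 also respond to amino acid shortage and to other stresses that need no fault in the ER. Counts at the 3′ end of a gene, as here, show neither the splicing of Xbp1 nor the translation of Atf4.

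The promoters of Hspa5 and Ddit3 are shown because these genes differed in opposite ways between the libraries described below, and the element of Xbp1 is shown because it shares the letters found at Hspa5. Sequences are from RefSeq on build GRCr8, 5′ to 3′ on the plus strand, and cover the 250 bases before the gene's start. Windows were found for 4 of 4 genes. The motif searched was the ER stress response element, CCAAT followed by any 9 bases and then CCACG, on both strands. Capitals mark its fixed letters, or its CCACG end where that stands alone.
Hspa5, chr3:38452766-38453015: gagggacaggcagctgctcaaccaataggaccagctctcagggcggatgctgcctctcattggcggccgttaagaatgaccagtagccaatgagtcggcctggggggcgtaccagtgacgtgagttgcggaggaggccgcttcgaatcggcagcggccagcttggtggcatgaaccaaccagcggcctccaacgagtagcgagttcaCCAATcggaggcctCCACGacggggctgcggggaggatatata
Ddit3, chr7:65001445-65001694: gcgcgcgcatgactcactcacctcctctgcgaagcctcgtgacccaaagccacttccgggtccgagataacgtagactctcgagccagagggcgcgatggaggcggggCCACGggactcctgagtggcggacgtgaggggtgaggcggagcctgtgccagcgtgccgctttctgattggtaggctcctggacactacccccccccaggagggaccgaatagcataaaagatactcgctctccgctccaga
Hspa5 element: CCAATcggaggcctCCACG
Xbp1 element, in chr14:84604373-84604622: CCAATcgcagacggCCACG
The whole element began 43 bases before the start of Hspa5 and 65 bases before that of Xbp1. It was matched 0 times in the windows of Ddit3 and Atf4, where CCACG alone was matched 1 time each. Only exact letters were searched, so near matches were not counted. The Ddit3 window holds cgtgccgctttctgattgg, which on the minus strand differs from the element by 1 letter. The absence of an exact match thus does not show that Ddit3 lacks such an element. Over windows of the same kind, from 250 bases before to 50 after the start, 22 of 33469 held the whole element (0.0657%) and 31.6% held CCACG. The other motifs searched on both strands were the element named ER stress response element II, ATT with any 3 bases and then CCACG (in 0.379% of windows), TGACGTGG (0.595%), TGATGNAAT (1.09%) and TTGCATCA (0.795%). None of these was matched in the windows of the 4 genes, which says only that those letters are not in these windows.

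Libraries held 6424 to 8859 barcodes and 104781421 to 202024200 UMIs, a UMI being the barcode put on a single RNA molecule before amplification. Median UMIs per barcode were 22453 and 28566 for GFP and TBX18 at day 3, and 15610 to 17620 at day 14. After filtering, 6064 to 7904 cells were kept per library. Pairs of libraries shared 7 to 20 cell barcodes over 10 pairs. Of the tables' Ensembl IDs, 0 could be paired with gene names, so that marker genes of myocytes and stromal cells could not be read. Cells were therefore divided by their cluster profiles into compartments 1 and 2, with the 3 genes and the virus features left out of the clustering, and neither compartment is given a cell type. Compartment 1 held the larger share of cells with an EGFP UMI in the GFP library at day 3, with 2440 of 4514 cells against 232 of 3138 in compartment 2. In the order GFP day 3, TBX18 day 3, GFP day 14, TBX18 day 14 and TBX18 with A83-01, compartment 1 made up 58.9%, 51.3%, 33.2%, 15.3% and 34.2% of the cells. Levels below are CPM, for which a gene's UMIs were added up within a library and compartment and scaled to 1000000 UMIs. Intervals are at 95% and cover counting error only, not the spread between cultures. Where intervals are said not to overlap, the share of all genes for which this held was not computed.

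Hspa5 was higher at day 14 than at day 3 in both compartments, was slightly higher with TBX18 than with GFP when summed over either compartment, and was lowest among the day 14 libraries with A83-01. Within single clusters the difference between TBX18 and GFP took both directions, as given with the shared clusters. In compartment 1 its level was 294 CPM with GFP and 329 with TBX18 at day 3. At day 14 it was 605 with GFP, 701 with TBX18 and 519.8 with TBX18 and A83-01. In compartment 2 the levels in the same order were 331, 372, 539, 647 and 394 CPM. Both compartments therefore ranked the 5 libraries alike, with GFP at day 3 lowest and TBX18 at day 14 highest. No neighbours in that order had overlapping counting intervals, which are narrow because 14075 to 69440 Hspa5 UMIs were summed. Relative to the median gene, the day 14 libraries of compartment 1 nearly tied. There the log2 ratio was 0.02 for TBX18 over GFP and -0.05 for A83-01 over TBX18. In CPM the compartments lay close together, with compartment 2 up to 1.13-fold higher at day 3 and compartment 1 up to 1.32-fold higher at day 14. Relative to the median gene the gap at day 14 was wider. Compartment 1 was then higher by 0.41 with GFP, 0.31 with TBX18 and 0.92 with A83-01 on the log2 scale. The day 3 direction depended on the scaling: relative to the median gene, compartment 1 was higher by 0.12 on the log2 scale in both libraries.

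Atf4, the translation-controlled factor downstream of Perk, showed the widest gap between compartments of the 3 genes at day 3. At day 14 its gap was narrower, and that of Ddit3 was the wider in all 3 libraries. In compartment 1 it stood at 73.0 CPM with GFP and 89.1 with TBX18 at day 3, and at 158, 143 and 145 CPM with GFP, TBX18 and TBX18 with A83-01 at day 14. In compartment 2 it stood at 348 and 328 CPM at day 3, and at 177, 174 and 248 CPM at day 14. Compartment 2 was 4.77-fold higher with GFP and 3.68-fold higher with TBX18 at day 3, but 1.12-fold, 1.22-fold and 1.71-fold higher in the 3 libraries of day 14. The order of the compartments held relative to the median gene in 4 libraries and turned in GFP at day 14, where compartment 1 over compartment 2 was 0.08 on the log2 scale. In compartment 1 the intervals of TBX18 at day 14 (138 to 148) and of TBX18 with A83-01 (142 to 149) overlapped, and in compartment 2 those of GFP and TBX18 at day 14 did.

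Ddit3, the target of Atf4 that encodes CHOP, was higher in compartment 2 in 4 libraries and higher in compartment 1 in GFP at day 14. In compartment 1 its level was 79.1 CPM with GFP and 51.0 with TBX18 at day 3, and 103, 83 and 115 CPM with GFP, TBX18 and TBX18 with A83-01 at day 14. In compartment 2 it was 167 and 153 CPM at day 3, and 69.1, 213 and 275 CPM at day 14. Compartment 2 exceeded compartment 1 by 2.10-fold and 2.99-fold at day 3 and by 2.57-fold and 2.39-fold with TBX18 and with A83-01 at day 14. In GFP at day 14, compartment 1 exceeded compartment 2 by 0.58 on the log2 scale. Within compartment 2 the GFP library at day 14 was thus the lowest of the 5 and the A83-01 library the highest, with no overlap of neighbouring intervals. Within compartment 1 the intervals of GFP at day 3 (77.4 to 80.9) and TBX18 at day 14 (79.1 to 87.1) overlapped.

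**Figure D1:**
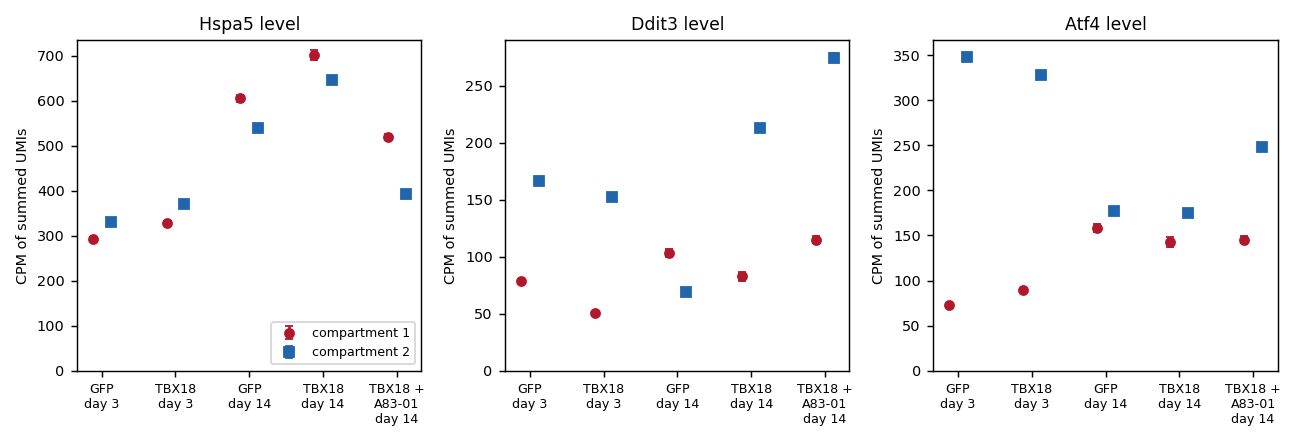
Level of Hspa5, Ddit3 and Atf4 in CPM of summed UMIs (y axes, from 0) by library (x axes), for compartment 1 (red circles) and compartment 2 (blue squares), with 95% counting intervals that are often smaller than the symbols. Hspa5 ran from 294 to 701 CPM over the libraries of compartment 1, while Ddit3 in compartment 2 ran from 69.1 CPM with GFP at day 14 to 275 CPM with A83-01.

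At day 3, TBX18 against GFP showed lower Ddit3 in compartment 1 and small differences elsewhere. The log2 ratio of TBX18 over GFP in compartment 1 was -0.63 for Ddit3 (interval -0.69 to -0.58), a level 1.55-fold lower with TBX18. Hspa5 differed by 0.16 and Atf4 by 0.29. A fold of 1.5 was used to count differences, and 1 of 3 genes was past it, Ddit3, on the lower side, beside 13.4% of 4118 genes lower by as much. That count was not stable: relative to the median gene the Ddit3 ratio was -0.54 and with doublets kept -0.51, both short of 1.5-fold. In compartment 2, 0 of 3 genes were past 1.5-fold, beside 7.6% of 4331 genes in either direction. There the ratios were 0.17 for Hspa5, -0.13 for Ddit3 and -0.09 for Atf4, and relative to the median gene Atf4 was at -0.0026.

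At day 14, Ddit3 was 3.09-fold higher with TBX18 than with GFP in compartment 2, at 213 against 69.1 CPM. The log2 ratio was 1.63 (interval 1.58 to 1.67), the 60th highest of 5230 genes. It was the 1 of 3 genes past 1.5-fold there, beside 7.44% of genes higher by as much. Hspa5 in the same cells was higher by 0.26 on the log2 scale, against 0.14 for the median gene. Atf4 stood at -0.02 with an interval from -0.06 to 0.01, and at -0.17 relative to the median gene. The level of Atf4 was therefore nearly alike in libraries whose Ddit3 differed 3.09-fold in compartment 2.

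In compartment 1 at day 14 Ddit3 was not higher with TBX18. Its log2 ratio over GFP was -0.32 (interval -0.40 to -0.23), beside -0.15 for Atf4 and 0.21 for Hspa5. With doublets kept, the Ddit3 ratio was -0.05 and its interval, -0.12 to 0.03, included 0. None of the 3 genes was past 1.5-fold there, beside 12.8% of 4911 genes in either direction. The median gene stood at 0.20, and relative to it Hspa5 was at 0.02, Atf4 at -0.34 and Ddit3 at -0.51.

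A83-01 with TBX18, against TBX18 alone at day 14, went with lower Hspa5 and higher Ddit3 and Atf4 in compartment 2. Hspa5, the chaperone, was 1.64-fold lower there, at 394 against 647 CPM, a log2 ratio of -0.72 (interval -0.74 to -0.70). It was the 1 of 3 genes past 1.5-fold, beside 16.1% of 5302 genes lower by as much. Ddit3 was 1.29-fold higher and Atf4 1.42-fold higher, with log2 ratios of 0.37 and 0.51. Relative to the median gene, which stood at -0.10, the ratios were -0.61, 0.47 and 0.61, so that Atf4 passed 1.5-fold on that scale. In compartment 1, 0 of 3 genes were past 1.5-fold, beside 31.8% of 4645 genes in either direction. The ratios there were -0.43 for Hspa5, 0.47 for Ddit3 and 0.03 for Atf4, whose interval (-0.04 to 0.09) included 0. The median gene of compartment 1 stood at -0.38, and relative to it Hspa5 was at -0.05, Atf4 at 0.40 and Ddit3 at 0.85, so that Ddit3 passed 1.5-fold on that scale. The lower Hspa5 of compartment 1 was thus close to the shift of the median gene, while that of compartment 2 was not. This comparison and the one before share the TBX18 library of day 14.

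**Figure D2:**
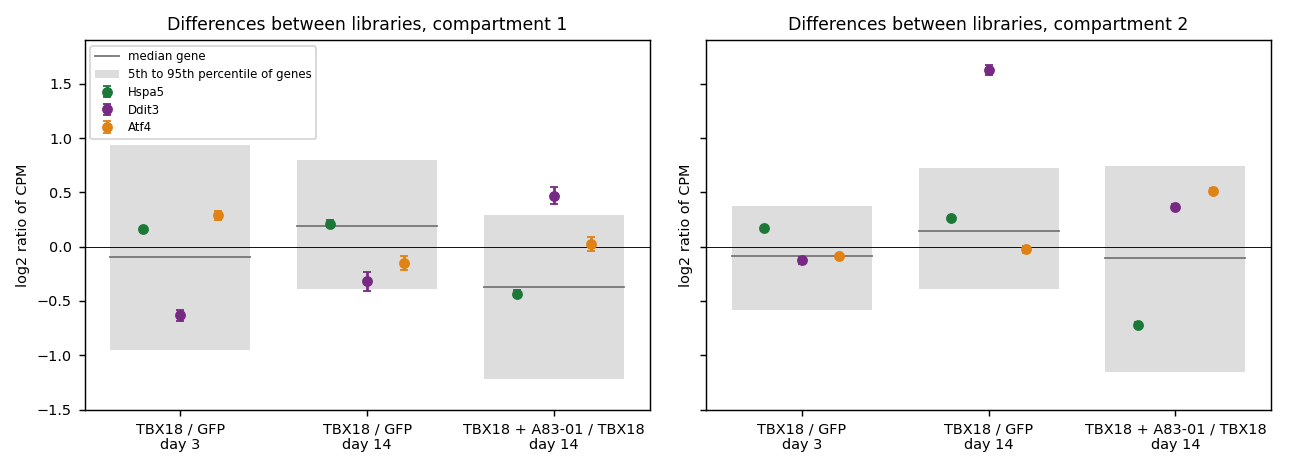
Log2 ratio of CPM between libraries (y axes) for 3 comparisons (x axes), compartment 1 at left and compartment 2 at right; points are Hspa5 (green), Ddit3 (purple) and Atf4 (orange) with 95% counting intervals, grey bars span the 5th to 95th percentile of genes at or above 20 CPM and grey lines mark their median. Ddit3 for TBX18 over GFP at day 14 stands at 1.63 in compartment 2 and at -0.32 in compartment 1.

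Between day 3 and day 14 the 3 genes were all higher in compartment 1 and differed in direction in compartment 2. This is a description, since the day 3 and day 14 tables differ in unit, in the range of cells they list and in depth as well as in time. The GFP day 14 over day 3 log2 ratios in compartment 1 were 1.04 for Hspa5, 1.12 for Atf4 and 0.39 for Ddit3. There 2 of 3 genes were past 1.5-fold higher, beside 23% of 4471 genes. In compartment 2 with GFP, Hspa5 was higher by 0.70 while Ddit3 and Atf4 were lower, at -1.27 and -0.97. That made 1 gene past 1.5-fold higher, beside 29.4% of 4866 genes, and 2 past 1.5-fold lower, beside 25.3%.

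The same comparison with TBX18 stood farthest from that with GFP for Atf4 in compartment 1 and for Ddit3 in compartment 2. In compartment 1 the ratios were 1.09 for Hspa5, 0.70 for Ddit3 and 0.68 for Atf4, so 3 of 3 genes were past 1.5-fold higher, beside 36.2% of 4629 genes. The median gene stood at 0.37 there, and relative to it Ddit3 was at 0.33 and Atf4 at 0.31, both short of 1.5-fold. With doublets kept, Atf4 was at 0.55, also short of it. In compartment 2, Hspa5 was at 0.80, Ddit3 at 0.48 and Atf4 at -0.91. There 1 gene was past 1.5-fold higher, beside 39.9% of 4970 genes, and 1 was past 1.5-fold lower, beside 18.3%. Relative to a median of 0.31, Hspa5 was at 0.49, short of 1.5-fold. Ddit3 in compartment 2 was thus lower at day 14 than at day 3 with GFP and higher with TBX18; the difference between these was not tested.

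Shares of cells with at least 1 UMI, read at equal depth, ranked the libraries of a compartment as the levels did, except that Ddit3 in compartment 1 of GFP at day 3 and TBX18 at day 14 had overlapping intervals in reversed order. Cells were thinned to 5000 UMIs each, which left out 0 to 127 cells of a library and compartment. Ddit3 was found in 25.5% of 4048 compartment 2 cells with GFP at day 14 (exact Clopper-Pearson interval 24.2% to 26.9%). It was found in 51.8% of 6686 cells with TBX18 and in 61.5% of 4694 cells with A83-01. Without thinning the shares were 54.3%, 79.2% and 86.8%. In compartment 1 the thinned shares for the same libraries were 36.6%, 30.6% and 39.2%. Atf4 was found in 28.9% and 35.0% of thinned compartment 1 cells at day 3 with GFP and TBX18, against 77.7% and 75.1% in compartment 2. Hspa5 was found in 64.7% to 91.3% of cells over the 10 groups. Between compartments its shares went against its levels at day 14 with GFP and with TBX18. They were 86.8% in compartment 1 and 88.0% in compartment 2 with GFP, where the intervals overlapped, and 87.4% and 91.3% with TBX18. The levels were higher in compartment 1 in both libraries. With A83-01 the shares, 82.8% in compartment 1 and 78.2% in compartment 2, had the direction of the levels. A cell type that lacks these genes could not be named. In barcodes with fewer than 500 genes, present at day 3, the 3 genes stood at 1.35 to 7.08 CPM, against 101 to 349 CPM in the kept cells of those libraries.

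Ddit3 was spread unevenly over the cells of compartment 2 in the 3 libraries of day 14. At 10000 UMIs per cell, the variance of its count was 4.47 times the mean with TBX18 and 3.70 times with A83-01, against 1.66 times with GFP at day 14. Cells with 10 or more Ddit3 UMIs made up 166 of 6029 (2.75%) with TBX18 and 154 of 4415 (3.49%) with A83-01. With GFP at day 14 there was 1 such cell of 3628. At the other end, 30.1% of these TBX18 cells and 21.2% of the A83-01 cells had 0 Ddit3 UMIs. The level was thus made of many cells with few or no Ddit3 UMIs and a smaller number with many. These measures depend on the mean count, which was 0.70 with GFP, 2.19 with TBX18 and 2.76 with A83-01. The 10% of cells with the most Ddit3 UMIs held 44.1% of them with GFP, 41.4% with TBX18 and 35.9% with A83-01. That share depends on the mean as well, so it cannot rank the libraries by unevenness. At the same means, counts with Poisson counting error alone would be 0 in 49.5% of cells with GFP, 11.2% with TBX18 and 6.33% with A83-01. The shares found were 56.9%, 30.1% and 21.2%, higher in each library. Atf4 was more even, with a variance of 1.40 to 1.47 times its mean in compartment 2 of the same 3 libraries.

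Over clusters, the high Ddit3 of TBX18 at day 14 was found mainly in 1 large group of cells. The cells formed 32 clusters, and levels were read in the 46 combinations of cluster and library with at least 50 cells. In compartment 2 with TBX18 at day 14, cluster 1, with 3749 cells, had 308 CPM of Ddit3, and cluster 5, with 2352 cells, had 88.0. Atf4 ran the other way in these clusters, at 151 CPM in cluster 1 and 208 in cluster 5, and so did Hspa5, at 572 and 724 CPM. With A83-01, cluster 2, with 3710 cells, had 294 CPM of Ddit3, 244 of Atf4 and 384 of Hspa5. In compartment 1 of TBX18 at day 3, Ddit3 was 136 CPM in cluster 17 (420 cells) and 37.5 CPM in cluster 6 (2223 cells). Atf4 was 51.5 CPM in cluster 17 and 88.4 in cluster 6.

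Small clusters held the extremes of the other genes. At day 3, compartment 2 included cluster 19, where Atf4 was 68.0 CPM with GFP and 69.8 with TBX18, against medians of 365 and 352 CPM over the 6 clusters of each library. Ddit3 in cluster 19 was 41.3 and 43.7 CPM, also the lowest of its compartment. In compartment 1 at day 3, cluster 25 had 54.6 CPM of Hspa5 with GFP (111 cells) and 23.3 with TBX18 (72 cells), against cluster medians of 292 and 328 CPM. Its cells were shallow, with median UMIs of 3262 and 4513, and its Ddit3 of 114 CPM in both libraries was above the cluster medians of 83.9 and 104 CPM. The part of depth in these values was not tested.

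**Figure D3:**
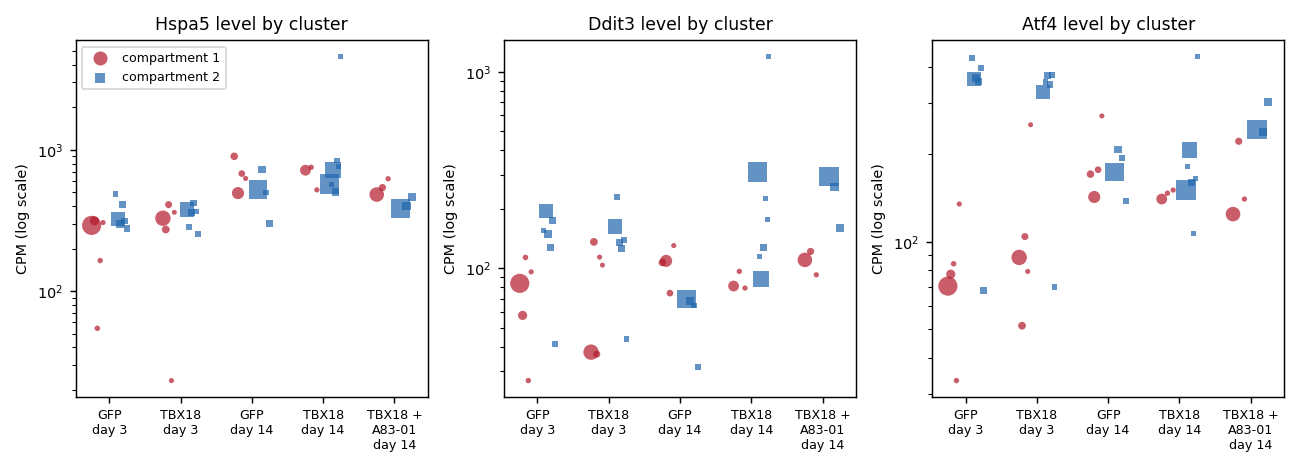
Level of Hspa5, Ddit3 and Atf4 in CPM (y axes, log scale) in each cluster with at least 50 cells of a library (x axes), with symbol area growing with the number of cells, red circles for compartment 1 and blue squares for compartment 2. In TBX18 at day 14 the 2 largest compartment 2 clusters stand apart for Ddit3, at 308 and 88.0 CPM, and 1 cluster of 53 cells lies above all others for Hspa5, at 4569 CPM.

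Clusters that 2 libraries shared, with at least 50 cells in each, gave the comparison within like cells. For TBX18 against GFP at day 14 in compartment 2 there were 4 such clusters, which held 42.1% of the TBX18 cells and 99.7% of the GFP cells. Ddit3 was higher with TBX18 in all 4 of these. In cluster 4 it was 115 against 69.9 CPM, in cluster 5 it was 88.0 against 68.3, in cluster 12 it was 128 against 64.7, and in cluster 23 it was 226 against 31.6. Folds were thus 1.65, 1.29, 1.97 and 7.13, the last in cells whose median depth was 13394 UMIs with TBX18 and 7785 with GFP. In cluster 5, where both libraries had at least 367 cells of about the same depth, Hspa5 was 724 CPM in both and Atf4 208 CPM in both. Over the 4 clusters the interval of Atf4 lay below 0 in 2 and that of Hspa5 above 0 in 2. Only Hspa5, Ddit3 and Atf4 were read in shared clusters, here and below. How many of all genes would differ as often is thus not known, and the median gene of a cluster was not computed. Cluster 1, with the highest Ddit3 of the large groups, had no counterpart of 50 cells with GFP.

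In compartment 1 at day 14 most GFP cells lay in clusters with fewer than 50 TBX18 cells. The 3 shared clusters held 97.4% of the TBX18 cells but 35.1% of the GFP cells. Hspa5, higher with TBX18 over the whole compartment, was lower with TBX18 in cluster 10 (718 against 900 CPM, a log2 ratio of -0.33) and in cluster 24 (-0.27), and higher in cluster 20 (0.15). Ddit3 was lower with TBX18 in clusters 10 and 24 and higher in cluster 20, at -0.40, -0.72 and 0.37. Atf4 was lower in all 3, at -0.28, -0.85 and -0.27. The direction of Hspa5 in the whole compartment was thus not that of its largest shared cluster, cluster 10, with 996 and 385 cells.

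For A83-01 against TBX18, compartment 2 had 1 shared cluster, cluster 12, with 494 and 318 cells, which were 10.5% and 4.75% of the compartment. Ddit3 there was 259.5 against 128 CPM, 2.03-fold higher with A83-01, Atf4 was 239 against 159.8 and Hspa5 401 against 503. These 3 differences had the direction of the whole compartment. In compartment 1 the 1 shared cluster, cluster 24, held 3.55% and 6.88% of the cells. Hspa5 there went against its compartment, at 0.26 (interval 0.14 to 0.39), and the intervals of Ddit3 and Atf4 included 0. At day 3, 6 shared clusters held 97.4% of the TBX18 cells and 97.3% of the GFP cells of compartment 2. Ddit3 had an interval above 0 in 1 of them and below 0 in 2, Hspa5 above 0 in 2 and below 0 in 2, and Atf4 below 0 in 2. The lower Ddit3 of compartment 1 at day 3 could hardly be followed this way, since the 2 shared clusters held 4.06% and 4.05% of the cells. In these, Ddit3 was 114 CPM in both libraries (cluster 25) and 104 against 96.0 (cluster 27), with intervals that included 0. With GFP and with TBX18, 0 clusters had at least 50 cells at both day 3 and day 14.

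Depth did not differ much between the compartment 2 cells of TBX18 and GFP at day 14, whose median UMIs were 15293 and 15456. When cells were split into 3 equal groups by depth, Ddit3 with TBX18 was 267, 233 and 173 CPM from the shallowest to the deepest. With GFP it was 77.8, 74.1 and 61.0 CPM. Ddit3 was thus higher with TBX18 in each depth group, and lower in deep than in shallow cells of both libraries. Hspa5 with GFP went the other way, at 485, 522 and 578 CPM.

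Within a library, cells with more Ddit3 mostly had more Atf4. Cells with 3 or more Ddit3 UMIs were compared with cells that had none, at 10000 UMIs per cell. Atf4 was higher in the former, with an interval above 0, in 8 of 10 combinations of library and compartment. Only Atf4 and Hspa5 were read, here and within clusters below, so how many of all genes would differ as often is not known. The largest difference was in compartment 1 of TBX18 at day 14, at 271 CPM in 72 cells against 123 CPM in 563 cells, 2.20-fold. In compartment 2 at day 3 the folds were 1.39 with GFP and 1.45 with TBX18, and with A83-01 at day 14 it was 1.42. The exception was compartment 2 of TBX18 at day 14, where Atf4 was 158 CPM in 1802 cells with 3 or more Ddit3 UMIs and 179.5 CPM in 1813 cells with none, a log2 ratio of -0.18 (interval -0.25 to -0.11). In compartment 1 of TBX18 at day 3 the interval of Atf4 included 0. Hspa5 had an interval above 0 in 4 of the 10 combinations and below 0 in 1. In compartment 1 at day 3 it was 1.32-fold higher with GFP and 1.27-fold higher with TBX18, near the 1.37-fold and 1.23-fold of Atf4.

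The same was read within the larger clusters of a library, where at least 50 cells stood on each side, in 15 combinations. Smaller clusters, such as cluster 18 of GFP at day 3 with 276 cells, were not read this way. Atf4 had an interval above 0 in 12 and below 0 in 0. In cluster 1 of TBX18 at day 14, the large group with high Ddit3, it was level, at 150.1 CPM in 1508 cells and 150.8 in 592. In cluster 2 of the A83-01 library it was 275 against 189 CPM. Hspa5 had an interval above 0 in 3 of the 15 and below 0 in 5, with log2 ratios from -0.47 to 0.85. Hspa5 and Ddit3 were thus not higher in the same cells as a rule.

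**Figure D4:**
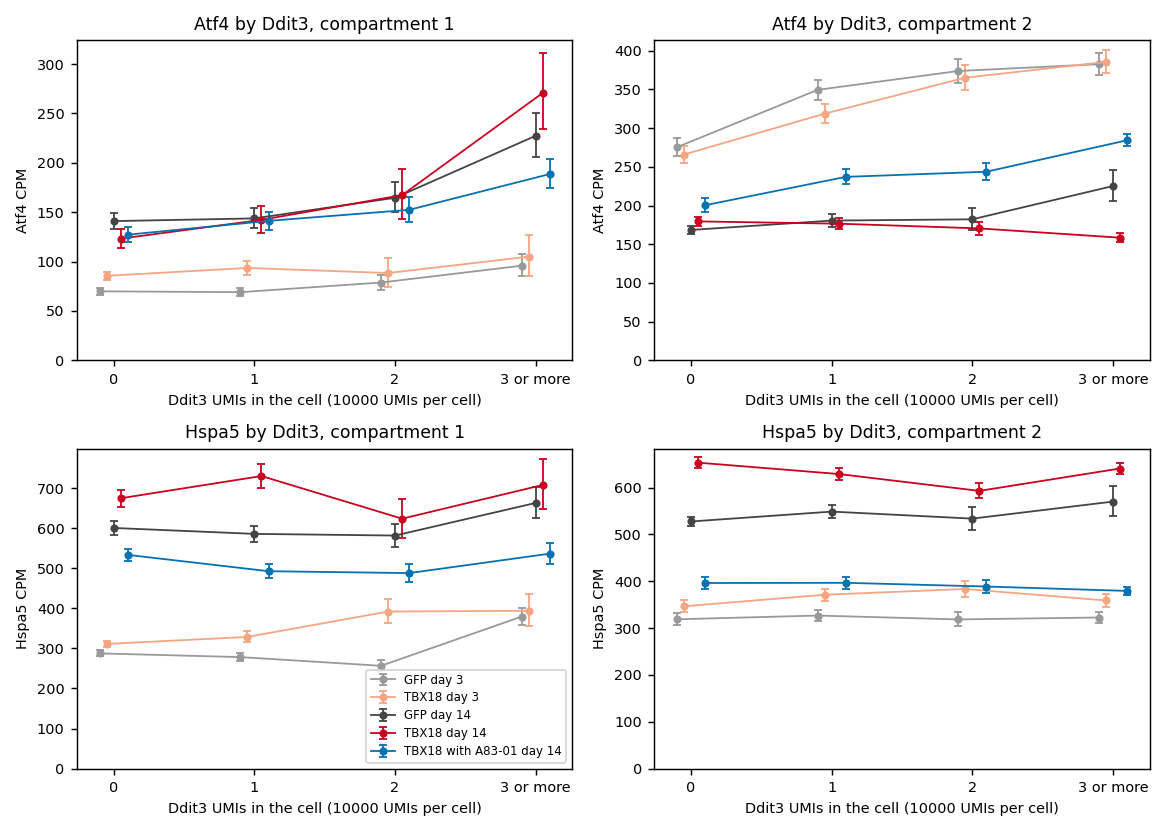
Atf4 (top) and Hspa5 (bottom) in CPM (y axes, from 0) in cells grouped by their number of Ddit3 UMIs (x axes) at 10000 UMIs per cell, compartment 1 at left and compartment 2 at right, with 1 line per library and 95% counting intervals. Atf4 is higher in cells with 3 or more Ddit3 UMIs in most lines and lower in compartment 2 of TBX18 at day 14 (158 against 179.5 CPM).

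Cells with a UMI of their own virus mostly had more Ddit3 in the TBX18 libraries, while no interval lay above 0 in the GFP libraries. Cells with and without such a UMI (EGFP, or human TBX18 or ZsGFP) were matched on depth within a library and compartment, and a cell without one may still carry virus. They were not matched on cluster. In compartment 1 of TBX18 at day 3, Ddit3 was 67.9 CPM (interval 65.3 to 70.6) in 1265 cells with a transgene UMI and 37.2 CPM (35.3 to 39.2) in 1265 without. That was 1.82-fold, and both values were below the 78.2 and 85.6 CPM of the matched cells of the GFP library. At day 14 the TBX18 library gave 1.30-fold in compartment 1, with 189 cells on each side, and 1.53-fold in compartment 2, with 132. With A83-01 the folds were 1.26 and 1.32, from 332 and 104 cells on each side. Ddit3 thus had an interval above 0 in 5 of 6 combinations of TBX18 library and compartment, all but compartment 2 at day 3. In the GFP libraries it was above 0 in 0 of 4 and below 0 in 1, with log2 ratios from -0.13 to 0.10. The difference between the viruses was not tested. Only the 3 genes were read this way, so how many of all genes would have such intervals is not known.

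The other genes differed less between these cells. Hspa5 in cells with a transgene UMI was within 1.09-fold of that in cells without in all 10 combinations. Its interval lay above 0 in 3 of 4 with GFP, and below 0 in 2 of 6 with TBX18. Atf4 was higher with a transgene UMI in compartment 1 at day 14, 1.20-fold with TBX18 and 1.12-fold with A83-01, and 1.09-fold lower in compartment 1 of TBX18 at day 3.

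**Figure D5:**
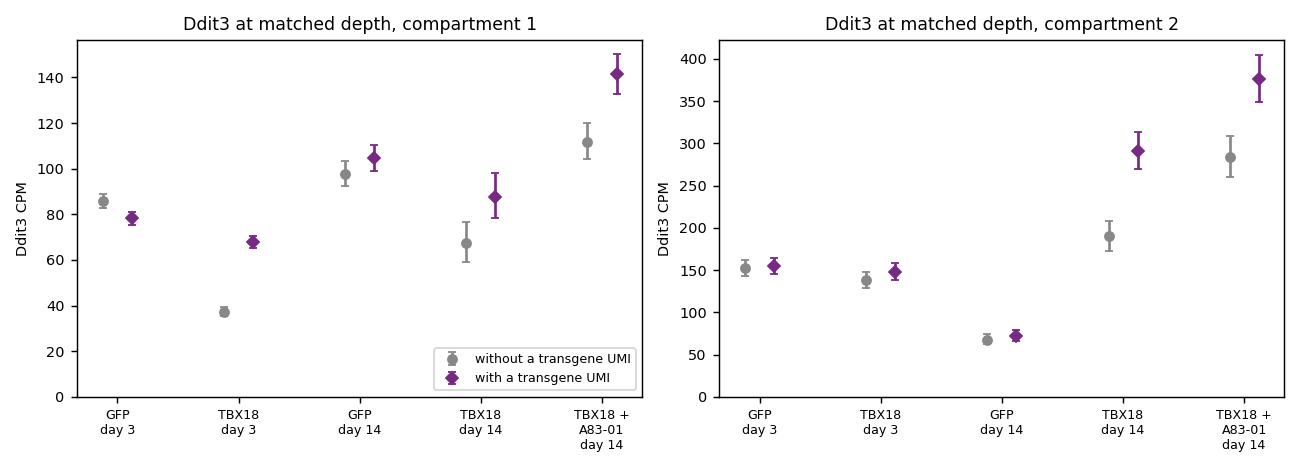
Ddit3 in CPM (y axes, from 0) by library (x axes) in cells without (grey circles) and with (purple diamonds) a UMI of their own virus, matched on depth, with 95% counting intervals; compartment 1 at left and compartment 2 at right. In compartment 1 of TBX18 at day 3 the values are 37.2 CPM without and 67.9 CPM with a transgene UMI.

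A cluster of 53 cells in compartment 2 of TBX18 at day 14, cluster 31, had the highest level of each of the 3 genes over all clusters, and it was singled out after its values were seen. Hspa5 was 4569 CPM there against 631 CPM in the other 6638 cells, 7.24-fold higher. Ddit3 was 1193 against 209 CPM, 5.70-fold, and Atf4 434 against 173 CPM, 2.50-fold. All 3 genes were past 1.5-fold higher, beside 26.4% of 5587 genes, and Hspa5 ranked 79th, Ddit3 113th and Atf4 466th. Its cells were shallow, with a median of 7999 UMIs and 2614 genes, against 15347 UMIs and 3775 genes in the rest. They were also uneven. Hspa5 ran from 0 in 5 cells to 19606 CPM, with a median of 1132 CPM against 555 CPM in the rest, and 23 of the 53 cells lay above the 99th percentile of the rest, 1788 CPM.

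These cells were 0.792% of the compartment and held 2.82% of its Hspa5 UMIs and 2.23% of its Ddit3 UMIs. Without them, Hspa5 for TBX18 over GFP at day 14 in compartment 2 was 0.23 on the log2 scale in place of 0.26. A UMI of the virus was found in 4 of the 53 cells (7.55%), against 1.93% of the rest. The cluster held 0 cells of the other libraries. The same 53 cells came together again at a clustering resolution of 0.5 and with doublets kept, and within a cluster of 87 cells under the day 14 range of genes and UMIs. In that larger cluster Hspa5 was 2745 CPM, Ddit3 744 CPM and Atf4 348 CPM. The part of low depth in its levels was not tested.

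Across the 10 profiles of library and compartment, Ddit3 and Atf4 had a Pearson correlation of 0.70 on the scale of log2(CPM + 0.5). Hspa5 had 0.06 with Ddit3 and 0.04 with Atf4. The profiles share libraries, and the values describe them only. Among 4957 other genes that averaged 20 CPM or more, Atf4 was the 163rd most like Ddit3, and Ddit3 the 944th most like Atf4. The 3 genes most like Hspa5 had correlations of 0.95 to 0.97, those most like Ddit3 0.87 to 0.93, and those most like Atf4 0.94 to 0.98; these are known here by ID alone. The pooled value of Hspa5 with Atf4 joined opposite relations. In compartment 1 both genes were higher at day 14 than at day 3. The log2 ratios with GFP and TBX18 were 1.04 and 1.09 for Hspa5, and 1.12 and 0.68 for Atf4. In compartment 2 they were 0.70 and 0.80 for Hspa5, but -0.97 and -0.91 for Atf4. The gap between compartments also enters the 0.70 of Ddit3 with Atf4. Correlations within a compartment were not computed. Over the pooled profiles Hspa5 thus stood apart from the other pair. Whether it did so within a compartment was not read from correlations.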

How the data were processed

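Droplet 3′ RNA libraries of 5 cultures were read with STAR 2.7.8a and Partek on build Rnor_6.0, per the submitters' processing notes; how reads that match more than 1 gene were handled is not given in the sources used here. The authors deposited the day 3 tables as estimated counts of UMIs and the day 14 tables as log2 values of CPM plus 1 per cell, judging from the values. UMIs of day 14 were recovered from the value that 1 UMI takes in each cell, and 99.7% of values were whole within 0.05 in each library. Recovery was tested on simulated data from both day 3 libraries over 15077 features, where 100% of counts came back.

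Barcodes with at least 500 genes were kept, and cells above the 6% mark of the doublet score in scanpy 1.11.5 were left out (360 to 464 per library). Cells were clustered together (2000 variable genes, 30 principal components, 20 neighbours, leidenalg 0.10.2 at resolution 1). Clusters were joined by average linkage into 2 compartments, the fallback set in the design because gene names could not be read; the planned pathway list and marker lists could not be applied for the same reason.

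Levels carry exact Poisson intervals of the summed counts, rounded to whole numbers. Ratios carry the exact interval conditional on the total of both counts, and shares the Clopper-Pearson interval, each at 95%. The background was the genes averaging 20 CPM or more in the 2 profiles compared, with a pseudocount of 0.5 CPM. On simulated counts the intervals held the true ratio for 91% to 96% of changed genes over the 10 combinations of comparison and compartment. These counts were drawn from the Poisson model that the intervals assume. They thus check the calculation only and leave out the spread between cells and cultures. The rule for named genes was the 3 measured members in every comparison, with the 3 most similar genes of each given without names. The members and lists were chosen with earlier results of these data known. The alternatives were median-of-ratios scaling, doublets kept, the day 14 range of genes and UMIs for all libraries, resolution 0.5, means over cells, other thinning depths and, added after seeing the data, leaving out 1 cluster.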

Additional observations from a re-analysis of the deposited data

Results flagged for a closer look

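In several pairs of groups a gene differed in opposite directions, and none of these differences was tested, since each group had 1 library. Ddit3 in compartment 2, as the log2 ratio of TBX18 over GFP, was -0.13 at day 3 and 1.63 at day 14. In the same cells, day 14 over day 3 was -1.27 with GFP and 0.48 with TBX18. At day 14, TBX18 over GFP for Ddit3 was -0.32 in compartment 1 and 1.63 in compartment 2. With GFP, day 14 over day 3 for Ddit3 was 0.39 in compartment 1 and -1.27 in compartment 2. These ratios share libraries and are not separate observations.

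Atf4 in compartment 1, as TBX18 over GFP, was 0.29 at day 3 and -0.15 at day 14. At day 3 the same ratio was 0.29 in compartment 1 and -0.087 in compartment 2. Day 14 over day 3 for Atf4 was 1.12 in compartment 1 and -0.97 in compartment 2 with GFP, and 0.68 and -0.91 with TBX18.

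Barcodes with fewer than 500 genes, which no comparison used, also held UMIs of the genes at day 3. In 731 such barcodes of the GFP library there were 29 UMIs of Hspa5, 18 of Ddit3 and 21 of Atf4. In 292 of the TBX18 library there were 21, 4 and 10. These values are above the limit of 3 that a count of 0 allows.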

How the results depend on the processing

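The 30 log2 ratios of the 3 genes were recomputed under 6 alternatives, and the values that left the counting interval of the reported ratio follow. Of 180 recomputed ratios, 118 stayed within it, 62 moved and 0 of the ratios whose interval excluded 0 changed sign. Atf4 for A83-01 over TBX18 in compartment 1, whose interval included 0, did so under means over cells. Median-of-ratios scaling moved 27 values: for TBX18 over GFP at day 3 it gave Hspa5 0.26, Ddit3 -0.54 and Atf4 0.39 in compartment 1, and Hspa5 0.25, Ddit3 -0.042 and Atf4 -0.0026 in compartment 2. For TBX18 over GFP at day 14 it gave Hspa5 0.017, Ddit3 -0.51 and Atf4 -0.34 in compartment 1, and Hspa5 0.12, Ddit3 1.48 and Atf4 -0.17 in compartment 2. For A83-01 over TBX18 it gave Hspa5 -0.054, Ddit3 0.85 and Atf4 0.40 in compartment 1, and Hspa5 -0.61, Ddit3 0.47 and Atf4 0.61 in compartment 2. For day 14 over day 3 with GFP it gave Hspa5 0.96, Ddit3 0.31 and Atf4 1.04 in compartment 1. For day 14 over day 3 with TBX18 it gave Hspa5 0.72, Ddit3 0.33 and Atf4 0.31 in compartment 1, and Hspa5 0.49, Ddit3 0.18 and Atf4 -1.21 in compartment 2. Keeping doublets moved 8, giving for TBX18 over GFP at day 3 Ddit3 -0.51 in compartment 1, for TBX18 over GFP at day 14 Ddit3 -0.045 in compartment 1, for A83-01 over TBX18 Ddit3 0.38 in compartment 1, for day 14 over day 3 with GFP Hspa5 1.00, Ddit3 0.27 and Atf4 0.95 in compartment 1, for day 14 over day 3 with TBX18 Hspa5 1.05 and Atf4 0.55 in compartment 1. The day 14 range of genes and UMIs moved 8, giving for TBX18 over GFP at day 3 Hspa5 0.19 and Ddit3 -0.77 in compartment 1, Hspa5 0.14 in compartment 2, for day 14 over day 3 with GFP Hspa5 0.74 in compartment 2, for day 14 over day 3 with TBX18 Ddit3 0.84 in compartment 1, Hspa5 0.86, Ddit3 0.41 and Atf4 -0.88 in compartment 2. A resolution of 0.5 moved 2, giving for day 14 over day 3 with GFP Atf4 1.03 in compartment 1, for day 14 over day 3 with TBX18 Atf4 0.60 in compartment 1. Means over cells moved 13, giving for TBX18 over GFP at day 3 Hspa5 0.14 in compartment 2, for TBX18 over GFP at day 14 Hspa5 0.31 and Ddit3 1.67 in compartment 2, for A83-01 over TBX18 Ddit3 0.38 and Atf4 -0.039 in compartment 1, Hspa5 -0.74 and Ddit3 0.28 in compartment 2, for day 14 over day 3 with GFP Hspa5 1.07 in compartment 1, Atf4 -0.94 in compartment 2, for day 14 over day 3 with TBX18 Hspa5 1.15 and Atf4 0.75 in compartment 1, Hspa5 0.87 and Ddit3 0.55 in compartment 2. Leaving out cluster 31 moved 4, giving for TBX18 over GFP at day 14 Hspa5 0.23 in compartment 2, for A83-01 over TBX18 Hspa5 -0.68 and Ddit3 0.39 in compartment 2, for day 14 over day 3 with TBX18 Hspa5 0.76 in compartment 2. Differences past 1.5-fold changed in 8 of the 180, 6 of them under median-of-ratios scaling and 2 with doublets kept, as given beside the results; the cause was not tested. Thinning to 10000 UMIs or not at all raised the shares of cells, as deeper cells hold more UMIs by construction. Cell classes named by markers and the counts of the pathway list were not run, because gene names could not be read. No paired analysis was possible because each group had 1 library. The depth of 15610 to 28566 median UMIs per barcode limits single cells more than sums, and the 1 library per group limits every difference between cultures.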
